A study of Homo sapiens with 12 samples.

Results

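The 31 genes described here encode enzymes of cholesterol synthesis and fatty acid synthesis together with the regulators that control their transcription. They were chosen as a list of symbols, and all 31 were found among 60660 gene identifiers in the table of counts and were tested. By role, 18 are sterol enzymes, 6 are regulators or transporters of sterol and 7 are fatty acid enzymes. RNA was sequenced from 12 libraries labelled HS578T, a mesenchymal triple-negative breast cancer line. 1 group, labelled 17PKO, carried per the labels a heterozygous loss of the short arm of chromosome 17 (17p) and received 1 µM doxorubicin for 48 h. A 17PKO group received the vehicle DMSO for 48 h. A group with Cas9 and an intact 17p received 170 nM doxorubicin for 48 h, and the last group, also Cas9 and 17p-intact, received DMSO for 48 h. Each group held 3 libraries, the groups are called deleted and intact below after their labels, and the labels do not say whether the deleted cells are 1 clone or how the libraries of a group were cultured. Doxorubicin is an anthracycline that poisons DNA topoisomerase. The dose changes together with the genotype label, so neither can be told apart from the other wherever treated cells of both labels are compared, and any other difference between the cell populations goes with the label as well.

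Cells build cholesterol from acetyl-CoA through mevalonate, isoprenoid diphosphates, squalene and lanosterol, and build fatty acids from the same acetyl-CoA through malonyl-CoA, followed by elongation and desaturation. Transcription of both pathways is driven by the SREBP factors, encoded by SREBF1 and SREBF2, which are made as membrane proteins of the endoplasmic reticulum. The escort protein SCAP carries them to the Golgi for cleavage when sterol is low, and INSIG1 and INSIG2 hold SCAP back when sterol is high. In tumour cells these pathways supply membrane for growth.

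Library totals ran from 66150539 to 99142099 counts, and 3 counts, the limit that a count of 0 allows, stood for 0.0303 to 0.0454 CPM (counts per 1e6 counts) depending on the library. The lowest count of any of the 31 genes in a library was 61. The mitochondrial share of counts was 6.9% for deleted DMSO replicate 2, 5.54% for intact doxorubicin replicate 1 and 2.61% to 3.57% for the other 10 libraries. Transcripts specific to certain chromosomes disagreed with the recorded karyotype of the line in 12 of 12 libraries, so the cells are called only as labelled. Of 8 mesenchymal markers, including VIM and FN1, 7 or 8 averaged at least 1 CPM in each group, and their summed level was 5788 to 5902 CPM in deleted doxorubicin, 7313 to 7723 CPM in deleted DMSO, 8706 to 8907 CPM in intact doxorubicin and 10074 to 10487 CPM in intact DMSO. Of 7 epithelial markers 3 to 5 averaged at least 1 CPM, with sums of 550 to 558, 459 to 620, 385 to 564 and 483 to 504 CPM in the same order of groups. Markers of blood cells, adipocytes and hepatocytes, 5 each, summed to at most 1.39 CPM in any library, and none averaged 1 CPM. The mesenchymal sum therefore moved with both genotype label and treatment. VIM, FN1, SPARC and COL1A1 followed the order of the sum, while AXL, CAV1 and CD44 did not. AXL averaged 949 CPM in deleted and 783 CPM in intact DMSO. CAV1 averaged 595 CPM in deleted doxorubicin and 251 CPM in deleted DMSO. CD44 averaged 709 to 782 CPM over the groups, and COL3A1 0.636 to 1.35 CPM. The part of these markers in the results below was not tested. In these bulk samples fewer cells of a type and less RNA per cell cannot be told apart.

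Promoter windows from 250 bases before to 50 bases after the transcription start were taken from RefSeq (GRCh38.p14), where 27 of the 31 genes had at least 1 entry and 37 entries in all. The sterol regulatory element was searched as TCACNCCAC, its inner part as CACNCCAC, which the longer motif contains, and the CCAAT box as CCAAT, each on both strands. TCACNCCAC was found in 1 of the 37 entries, that of SREBF2 at position -133 from the start, against 1.13% of 35116 promoters. CACNCCAC was found in 7 of 37 entries (18.9%), from 6 genes, against 5.87% of all promoters, and CCAAT in 24 of 37 entries (64.9%), from 20 genes, against 34.6%. Below are the promoter with the full element (SREBF2, chr22:41832855-41833154, plus strand), that of the first enzyme of the list (HMGCS1, chr5:43313363-43313662, minus strand), that of the gene with the highest fold change in doxorubicin (HSD17B7, chr1:162790452-162790751, plus strand), and those of the pair of fatty acid enzymes that fell most in doxorubicin (SCD, chr10:100346983-100347282, plus strand, and ELOVL6, chr4:110198566-110198865, minus strand). Capitals mark a sterol element or a CCAAT box in either orientation.
SREBF2: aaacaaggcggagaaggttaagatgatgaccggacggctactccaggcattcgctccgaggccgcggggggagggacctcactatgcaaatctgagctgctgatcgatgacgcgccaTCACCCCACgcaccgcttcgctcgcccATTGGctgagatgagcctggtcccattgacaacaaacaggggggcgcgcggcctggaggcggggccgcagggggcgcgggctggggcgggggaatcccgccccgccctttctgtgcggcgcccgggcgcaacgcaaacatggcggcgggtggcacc
HMGCS1: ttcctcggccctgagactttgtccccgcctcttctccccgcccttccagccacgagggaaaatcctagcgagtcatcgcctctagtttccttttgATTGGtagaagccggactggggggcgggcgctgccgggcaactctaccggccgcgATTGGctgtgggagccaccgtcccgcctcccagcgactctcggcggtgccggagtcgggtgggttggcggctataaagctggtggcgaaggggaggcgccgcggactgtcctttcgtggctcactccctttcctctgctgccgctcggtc
HSD17B7: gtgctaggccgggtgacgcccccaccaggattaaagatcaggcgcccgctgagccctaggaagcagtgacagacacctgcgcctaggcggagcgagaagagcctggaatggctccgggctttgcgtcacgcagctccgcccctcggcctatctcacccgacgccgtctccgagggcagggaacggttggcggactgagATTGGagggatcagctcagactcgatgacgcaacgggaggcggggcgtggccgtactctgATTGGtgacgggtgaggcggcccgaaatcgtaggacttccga
SCD: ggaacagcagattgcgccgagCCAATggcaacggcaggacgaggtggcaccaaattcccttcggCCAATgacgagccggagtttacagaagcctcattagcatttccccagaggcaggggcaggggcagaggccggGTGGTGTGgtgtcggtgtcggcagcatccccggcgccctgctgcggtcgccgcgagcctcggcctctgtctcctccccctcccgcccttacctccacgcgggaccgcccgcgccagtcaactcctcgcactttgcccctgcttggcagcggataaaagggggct
ELOVL6: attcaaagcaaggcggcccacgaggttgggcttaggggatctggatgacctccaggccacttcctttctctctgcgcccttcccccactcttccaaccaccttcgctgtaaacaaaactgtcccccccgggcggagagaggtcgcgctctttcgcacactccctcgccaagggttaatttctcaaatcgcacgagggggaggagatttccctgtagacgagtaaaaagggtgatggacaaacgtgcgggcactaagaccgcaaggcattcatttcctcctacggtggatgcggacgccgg
SREBF2 held the sterol element and 1 CCAAT box, SCD held the shorter sterol motif at -114 and 2 CCAAT boxes, HMGCS1 and HSD17B7 held 2 CCAAT boxes each, and the ELOVL6 window held none of the letters searched. A match is a description of these windows only.

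In the deleted cells 1 µM doxorubicin moved 13 of the 31 genes, 7 up and 6 down. The genes that rose most were HSD17B7 and TM7SF2, which act after lanosterol, and FADS1, a desaturase, and those that fell most were the lipogenic enzymes ELOVL6 and SCD. Among all 21803 genes tested 17.5% were called higher and 13.1% lower in this comparison, so the 7 and 6 of 31 stand close to the background. The median log2 fold change of the 31 genes was -0.16, against -0.02 over all genes, and moved to -0.08 without deleted DMSO replicate 1, -0.10 without deleted DMSO replicate 3 or deleted doxorubicin replicate 2 and -0.24 without deleted DMSO replicate 2. Without the 2 libraries of highest mitochondrial share the count was 20, with 7 higher and 13 lower. Over all 22496 genes tested there, 4257 were higher and 3655 lower. With the trend of each library against transcript GC content removed the count was 24, with 7 higher and 17 lower. Over all 21371 genes tested there, 3856 were higher and 4870 lower. The closeness to the background thus holds for the main fit, and the lower calls made up a larger share of the 31 genes in these 2 settings. Of the 31 genes 14 had no overlap between the 3 doxorubicin and the 3 DMSO libraries. The same count was not made over all genes, so it shows nothing particular to the 31.

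Of the 18 sterol enzymes 4 rose, 3 fell and 11 did not pass in the deleted cells. HSD17B7, a ketosteroid reductase of the steps after lanosterol, had 25.6, 26 and 23.6 CPM in doxorubicin, against 6.5, 6.9 and 6.57 CPM in DMSO. All 3 treated libraries stood far above all 3 DMSO libraries, with a log2 fold change of 1.91 ± 0.11 (SE, n = 3 each; edgeR adjusted p = 1.81e-08), or 3.77-fold. The pseudogene HSD17B7P2 held 9.27% as many counts as HSD17B7 itself, and reads shared with it make the level uncertain. TM7SF2, a sterol reductase that removes a double bond after lanosterol demethylation, had 7.7, 7.39 and 7.19 CPM in doxorubicin and 2.8, 1.83 and 3.36 CPM in DMSO. The groups did not overlap and the log2 fold change was 1.48 ± 0.21 (SE, n = 3 each; edgeR adjusted p = 0.000117).

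The early enzymes split. ACAT2, the cytosolic thiolase that joins acetyl-CoA units, had 125, 128 and 121 CPM in doxorubicin and 79.8, 85.4 and 75.6 CPM in DMSO, a log2 fold change of 0.64 ± 0.08 (edgeR adjusted p = 3.59e-05, n = 3 each). HMGCS1, the synthase of the next step, had 41.6, 41.6 and 42.7 CPM in doxorubicin and 53.9, 62.1 and 53.3 CPM in DMSO, a log2 fold change of -0.43 ± 0.10 (edgeR adjusted p = 0.00644). Neighbouring steps thus moved in opposite directions, each with no overlap between the groups. ACAT2 shares exonic bases with 3 genes on the opposite strand: SOD2 (26.5% of its exonic bases), SOD2-OT1 (33.9%) and TCP1 (9.2%). TCP1 counts were 435% of those of ACAT2, and no count was matched for SOD2. The strand setting of the counting is not given in the sources used here, so the ACAT2 level is uncertain. IDI1, the isomerase that makes the prenyl starter unit, had 52.1, 57.9 and 51.4 CPM in doxorubicin and 31.8, 41.6 and 32.5 CPM in DMSO, a log2 fold change of 0.61 ± 0.13 (edgeR adjusted p = 0.00224). All 3 treated libraries stood above all 3 DMSO libraries, of which replicate 2 was the highest.

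LSS, the cyclase that makes lanosterol, fell by 0.52 on the log2 scale (SE 0.17, edgeR adjusted p = 0.0327), with 33.3, 30.9 and 31.5 CPM in doxorubicin and 52.2, 31.6 and 53.4 CPM in DMSO. DMSO replicate 2 lay among the treated libraries. The LSS call was lost, at adjusted p from 0.0532 to 0.132, without any 1 of deleted doxorubicin replicates 1, 2 and 3, deleted DMSO replicates 1 and 3 and intact DMSO replicate 2. NSDHL, a dehydrogenase that acts in removing sterol methyl groups, fell by 0.29 (SE 0.09, edgeR adjusted p = 0.0254), with 26.8, 26.9 and 28.4 CPM in doxorubicin and 35.5, 33.4 and 31.8 CPM in DMSO. The groups did not overlap, but the call was lost, at adjusted p from 0.053 to 0.0966, without any 1 of deleted doxorubicin replicates 1, 2 and 3 and deleted DMSO replicate 1. SQLE, the squalene epoxidase, did not pass, with 41.5, 45.6 and 43.1 CPM in doxorubicin and 41.1, 51.6 and 38.6 CPM in DMSO. FDFT1, the squalene synthase, did not pass either, with means of 68.7 ± 2.68 and 73.7 ± 2.76 CPM (SD, n = 3 each). FDPS, the farnesyl diphosphate synthase, had the highest level per exon length of the sterol enzymes and averaged 121 ± 4.15 CPM in doxorubicin and 127 ± 10.3 CPM in DMSO.

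The level of CYP51A1, the lanosterol demethylase, is uncertain. Its 3451 counts over all libraries came from an exonic sequence of which 79.4% is shared in GENCODE 29 with another gene model on the same strand. It had 3.51, 2.2 and 2.55 CPM in deleted doxorubicin, 4.45, 0.828 and 4.89 CPM in deleted DMSO, 1.34, 4.45 and 3.48 CPM in intact doxorubicin and 5.13, 4.86 and 4.92 CPM in intact DMSO. Its lowest values were the 2 libraries of highest mitochondrial share. The other sterol enzymes that did not pass were MVK, PMVK and MVD, the kinases and decarboxylase of the mevalonate steps, MSMO1, EBP, SC5D and DHCR7, the enzyme of the last reduction to cholesterol. DHCR7 averaged 30.7 ± 4.1 CPM in doxorubicin and 35.9 ± 8.0 CPM in DMSO (SD, n = 3 each). Without deleted DMSO replicate 2 its log2 fold change was -0.42 with an adjusted p of 0.0206, and with the GC trend removed it was also called (adjusted p = 0.0029). MSMO1, at 27.8 ± 0.535 CPM in doxorubicin and 33.5 ± 0.58 CPM in DMSO, was called without intact doxorubicin replicate 2 (-0.27, adjusted p = 0.0119). With the GC trend removed edgeR also called MSMO1 (-0.27, adjusted p = 0.0212), EBP (-0.37, adjusted p = 0.0321) and FDPS (-0.25, adjusted p = 0.00344).

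Of the 6 regulators and transporters, STARD4 rose in the deleted cells and the other 5 did not pass. STARD4, a soluble sterol carrier, had 13.6, 14.0 and 14.4 CPM in doxorubicin and 8.39, 10.9 and 9.22 CPM in DMSO, a log2 fold change of 0.56 ± 0.17 (edgeR adjusted p = 0.0199, n = 3 each). The groups did not overlap, and the call was lost, at adjusted p from 0.0553 to 0.0802, without any 1 of deleted doxorubicin replicates 2 and 3 and deleted DMSO replicates 1 and 3. INSIG1 had 18.4, 17.1 and 18.7 CPM in doxorubicin and 20.3, 22.1 and 21.8 CPM in DMSO, with no overlap but a log2 fold change of -0.24 ± 0.10 that did not pass (edgeR adjusted p = 0.0775). INSIG1 was called at -0.26 with the filter of 1 CPM in 3 libraries (edgeR adjusted p = 0.0438) and with the GC trend removed (edgeR adjusted p = 0.028). SREBF1 had 29.1, 24.9 and 25.5 CPM in doxorubicin and 36.4, 20.7 and 35.0 CPM in DMSO (edgeR adjusted p = 0.464). DMSO replicate 2 was the lowest of the 6 libraries, and without it the log2 fold change was -0.45 with an adjusted p of 0.0421. SREBF2 averaged 71.0 ± 2.52 CPM in doxorubicin and 79.8 ± 13.1 CPM in DMSO, and SCAP 57.2 ± 2.74 and 60.3 ± 14.1 CPM (SD, n = 3 each). Without deleted DMSO replicate 2 the SREBF2 log2 fold change was -0.31 with an adjusted p of 0.0161, and it was also called with the GC trend removed (-0.35).

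Of the 7 fatty acid enzymes 2 rose, 3 fell and 2 did not pass in the deleted cells. ELOVL6, the elongase of saturated and monounsaturated chains, had 8.33, 9.15 and 9.22 CPM in doxorubicin and 20.9, 24.3 and 21.2 CPM in DMSO, a log2 fold change of -1.31 ± 0.12 (edgeR adjusted p = 1.42e-06, n = 3 each). SCD, the desaturase that makes oleate, had 45.5, 42.0 and 44.3 CPM in doxorubicin and 91.5, 87.5 and 88.8 CPM in DMSO, a log2 fold change of -1.02 ± 0.09 (edgeR adjusted p = 7.69e-07). In both genes every treated library lay below every DMSO library, at fitted ratios of 0.402 and 0.492. FADS1, the desaturase of the polyunsaturated branch, had 104, 91.5 and 105 CPM in doxorubicin and 59.8, 54.4 and 58.7 CPM in DMSO, a log2 fold change of 0.80 ± 0.09 (edgeR adjusted p = 9.73e-06). FADS2, the desaturase of the step before it, had 46.7, 44.6 and 49.0 CPM in doxorubicin and 35.7, 29 and 39.4 CPM in DMSO, a log2 fold change of 0.43 ± 0.13 (edgeR adjusted p = 0.0226). Both desaturases had no overlap between the groups. They lie side by side on chromosome 11 on opposite strands (FADS1 chr11:61799625-61829318, FADS2 chr11:61792980-61867354, hg38) and share 490 exonic bases, so reads there are uncertain without strand. The FADS2 call was lost, at adjusted p from 0.0642 to 0.0893, without any 1 of deleted doxorubicin replicates 1 and 3 and deleted DMSO replicate 2. With the GC trend removed the FADS2 value was 0.22 (adjusted p = 0.0376).

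Of the core steps of fatty acid synthesis ACACA fell. ACACA, the acetyl-CoA carboxylase, had 58.2, 55.0 and 61.0 CPM in doxorubicin and 83.6, 67.5 and 71.5 CPM in DMSO, and fell by 0.35 on the log2 scale (SE 0.10, edgeR adjusted p = 0.0175). The groups did not overlap, and the call was lost, at adjusted p from 0.0536 to 0.0905, without any 1 of deleted doxorubicin replicates 1 and 2 and deleted DMSO replicate 1. FASN, the fatty acid synthase, had 124, 105 and 115 CPM in doxorubicin and 196, 99.9 and 176 CPM in DMSO and did not pass (log2 fold change -0.45 ± 0.20, edgeR adjusted p = 0.101). DMSO replicate 2 was again the lowest of the 6 libraries, and without it the log2 fold change was -0.71 with an adjusted p of 0.000616. ACLY, which makes cytosolic acetyl-CoA from citrate, did not pass, with 418, 400 and 423 CPM in doxorubicin and 429, 319 and 401 CPM in DMSO.

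**Figure D1:**
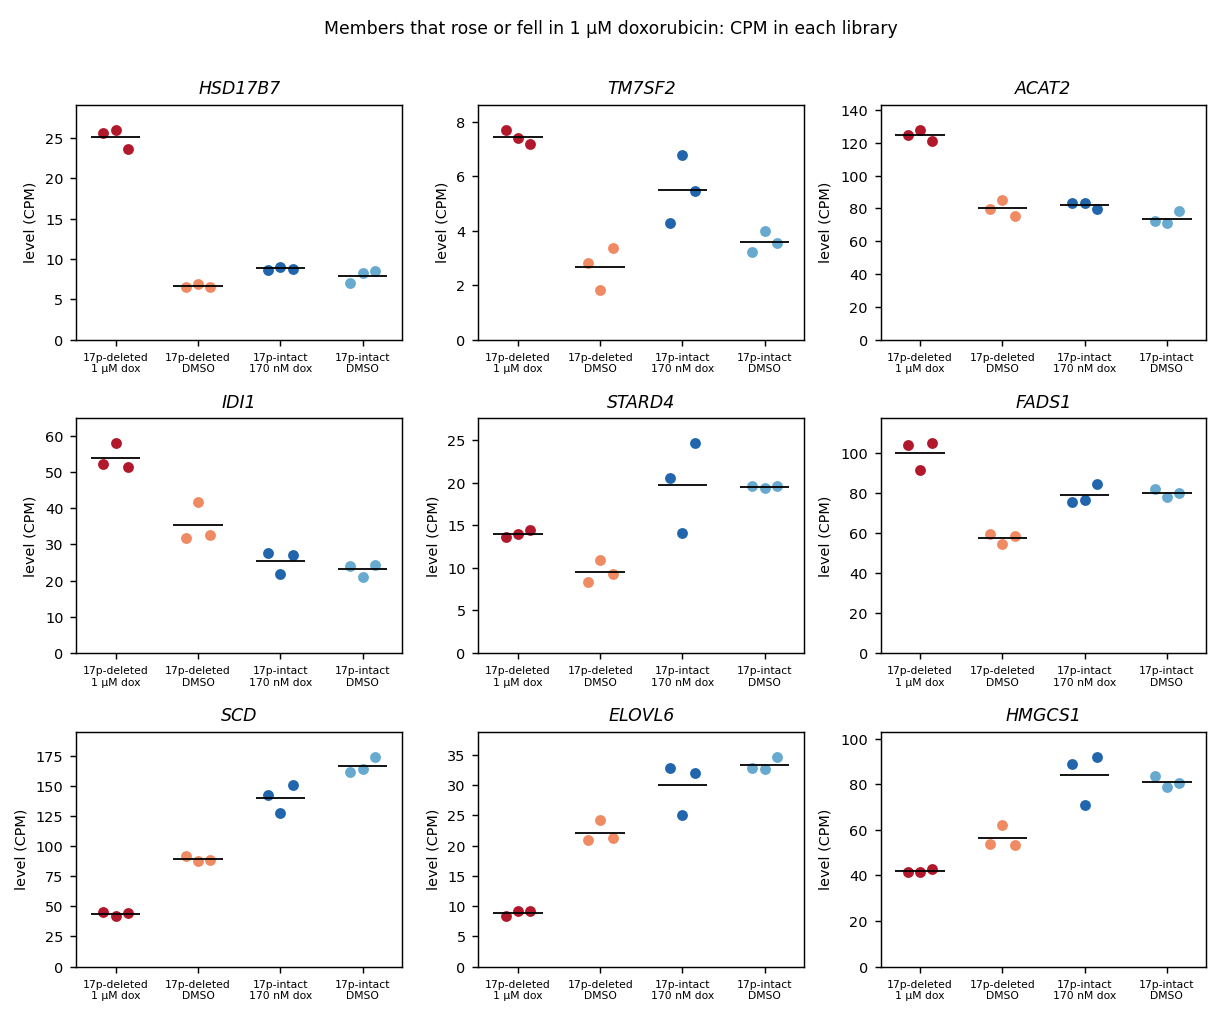
Level in CPM (y axis, from 0) of 9 genes in each of the 12 libraries, in 4 groups (x axis), with a line at the group mean. HSD17B7, TM7SF2, ACAT2, IDI1, STARD4 and FADS1 stand higher, and SCD, ELOVL6 and HMGCS1 lower, in all 3 deleted doxorubicin libraries than in all 3 deleted DMSO libraries.

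In the intact cells 170 nM doxorubicin gave no call among the 31 genes in the edgeR quasi-likelihood test, where 0.0596% of all genes were called. At an unadjusted p under 0.05 there were 3 genes in edgeR, against 2504 of all 21803 genes, and 3 in DESeq2. DESeq2 called 1 of the 31, INSIG1, and 467 of all genes. INSIG1 had 28.9, 28.3 and 29.9 CPM in doxorubicin and 34.0, 36.6 and 42.4 CPM in DMSO, a log2 fold change of -0.38 ± 0.10 (edgeR adjusted p = 0.165, DESeq2 adjusted p = 0.0163). All 3 treated libraries lay below all 3 DMSO libraries. TM7SF2 had 4.28, 6.77 and 5.45 CPM in doxorubicin and 3.2, 3.97 and 3.53 CPM in DMSO, also with no overlap, and a log2 fold change of 0.62 ± 0.21 (edgeR adjusted p = 0.275). SCD had 142, 127 and 151 CPM in doxorubicin and 161, 164 and 174 CPM in DMSO, with no overlap and a log2 fold change of -0.25 ± 0.08 (edgeR adjusted p = 0.29). Of the 31 genes 8 had no overlap between the treatments, also without a count over all genes to set beside it. The median log2 fold change of the 31 genes was -0.02, against 0.01 over all genes.

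**Figure D2:**
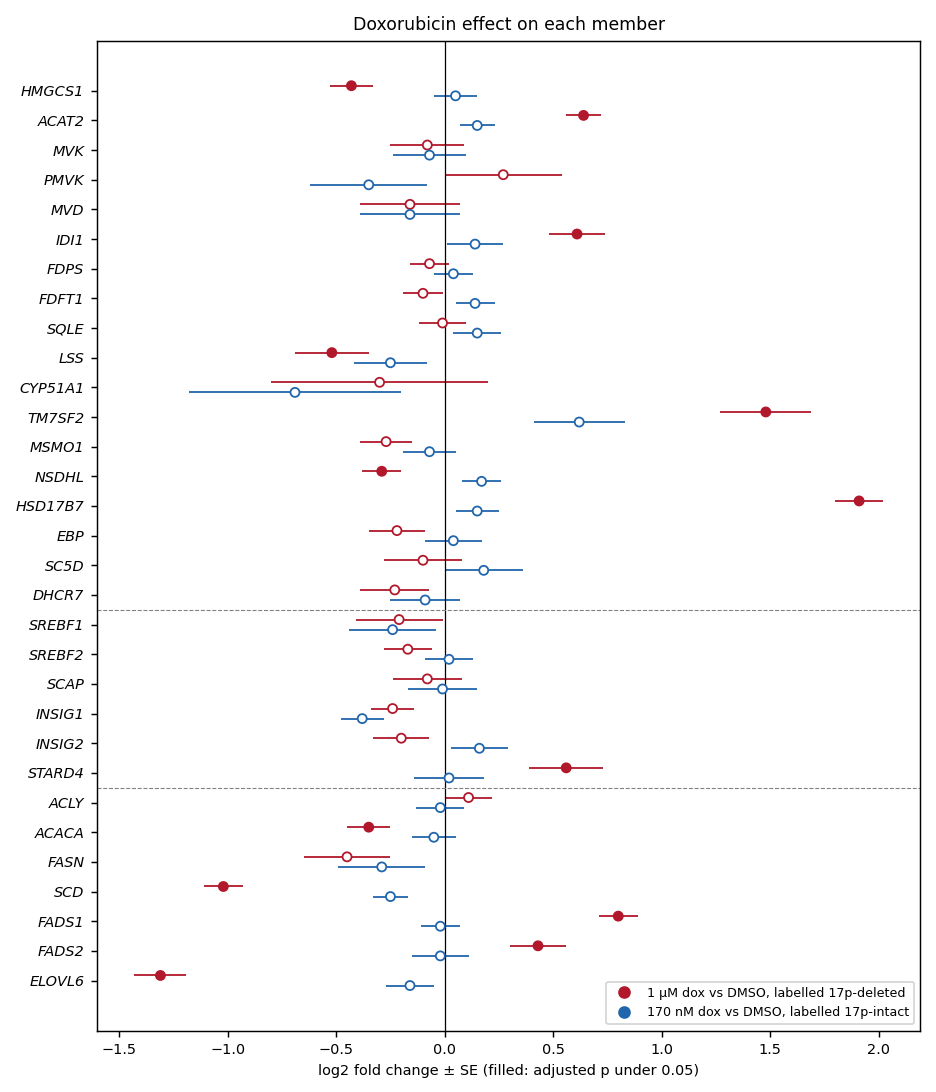
Log2 fold change with SE (x axis) of each of the 31 genes (y axis) for 1 µM doxorubicin over DMSO in deleted cells (red) and 170 nM over DMSO in intact cells (blue), with filled points at an adjusted p under 0.05 and dashed lines between sterol enzymes, regulators and transporters, and fatty acid enzymes. In deleted cells 13 points are filled, from -1.31 (ELOVL6) to 1.91 (HSD17B7), and in intact cells none is.

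The difference of the doxorubicin effects, deleted less intact, was called for 7 of the 31 genes, 3 higher and 4 lower, against 10.3% higher and 6.74% lower among all genes. HSD17B7 differed by 1.76 ± 0.15 on the log2 scale (edgeR adjusted p = 2.6e-06), FADS1 by 0.82 ± 0.12 (adjusted p = 0.00037) and ACAT2 by 0.48 ± 0.11 (adjusted p = 0.00895). ELOVL6 differed by -1.16 ± 0.16 (adjusted p = 0.000213) and SCD by -0.78 ± 0.12 (adjusted p = 0.00045). These 5 genes kept their call in every alternative of scaling, filter, test, samples or libraries, while a 2-fold limit left 2 of the 7. No alternative changed how reads were counted, which leaves HSD17B7, FADS1 and ACAT2 uncertain as given above. HMGCS1 at -0.48 ± 0.15 (adjusted p = 0.0377) and NSDHL at -0.46 ± 0.13 (adjusted p = 0.0254) did not keep their call. HMGCS1 lost it without any 1 of 9 libraries (adjusted p from 0.0585 to 0.107), all but deleted DMSO replicates 1 and 3 and intact doxorubicin replicate 2. NSDHL lost it without any 1 of 7 (adjusted p from 0.0507 to 0.0936): deleted doxorubicin replicates 1, 2 and 3, deleted DMSO replicate 1, intact doxorubicin replicate 1 and intact DMSO replicates 1 and 2. IDI1 and TM7SF2, which rose in the deleted cells, did not pass here, with differences of 0.47 ± 0.18 (adjusted p = 0.093) and 0.85 ± 0.29 (adjusted p = 0.0635). IDI1 was called without deleted DMSO replicate 2 (adjusted p = 0.0179) and with the GC trend removed (adjusted p = 0.00187), and TM7SF2 by DESeq2 (adjusted p = 0.0266) and without deleted DMSO replicate 3 (adjusted p = 0.0245) or intact doxorubicin replicate 2 (adjusted p = 0.0283). MSMO1 (-0.36) and INSIG2 (-0.51) were called without intact doxorubicin replicate 2, and STARD4 (0.73) without intact doxorubicin replicate 3. Scaling by library totals moved the median of all genes from -0.03 to 0.08 and the share of all calls that were higher from 60.3% to 71.3%, and called 6 of the 31 genes, 4 higher and 2 lower. Since the dose was 1 µM in one label and 170 nM in the other, the difference joins label and dose.

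In DMSO, where no dose differs, 16 of the 31 genes differed between the labels, 4 higher and 12 lower in deleted than in intact cells. The background among all genes was 18.8% higher and 16.2% lower, and the median log2 fold change was -0.22 for the 31 genes against 0.04 for all genes. Without deleted DMSO replicate 2 the median of the 31 genes was -0.01, and the number of calls was 16. The lower genes were spread over the regulators (4 of 6), the fatty acid enzymes (5 of 7) and the sterol enzymes (3 of 18), and the 4 higher genes were all sterol enzymes. Of the 31 genes 19 had no overlap between the labels, again without a count over all genes to set beside it.

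Among regulators, SREBF1 lies on 17p (chr17:17810399-17837002, hg38, minus strand), inside the arm that the labels give as lost from 1 copy. SREBF1 had 36.4, 20.7 and 35.0 CPM in deleted and 59.0, 61.1 and 60.5 CPM in intact DMSO libraries, a log2 fold change of -0.97 ± 0.20 (edgeR adjusted p = 0.00203, n = 3 each). All deleted libraries lay below all intact libraries, at a fitted ratio of 0.51, and deleted replicate 2, of high mitochondrial share, was the lowest. Over the alternatives of processing and libraries the log2 fold change ran from -1.11 to -0.77. SREBF1 overlaps RAI1 on the opposite strand over 556 exonic bases, and reads there are uncertain without strand. SREBF2, on chromosome 22, had 88.1, 64.7 and 86.6 CPM in deleted and 99.6, 96.1 and 100.7 CPM in intact libraries, a log2 fold change of -0.31 ± 0.11 (adjusted p = 0.0471), without overlap. Without deleted DMSO replicate 2 the SREBF2 value was -0.20 (adjusted p = 0.115), and the call was also lost, at adjusted p from 0.0588 to 0.126, without any 1 of the 3 intact DMSO replicates or intact doxorubicin replicate 3.

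INSIG1, itself a target of the SREBP factors, had 20.3, 22.1 and 21.8 CPM in deleted and 34.0, 36.6 and 42.4 CPM in intact DMSO libraries, a log2 fold change of -0.82 ± 0.10 (edgeR adjusted p = 2.94e-05). Its paralog INSIG2 had 20.1, 22.8 and 18.6 CPM in deleted and 19.2, 17.9 and 19.7 CPM in intact libraries and did not pass. The INSIG1 groups lay far apart and the INSIG2 groups overlapped. STARD4 had 8.39, 10.9 and 9.22 CPM in deleted and 19.6, 19.4 and 19.6 CPM in intact libraries, a log2 fold change of -1.04 ± 0.17 (adjusted p = 0.000299) and the lowest of the 31. SCAP did not pass, at 60.3 ± 14.1 and 66 ± 1.42 CPM (SD, n = 3 each).

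Among sterol enzymes, SQLE had 41.1, 51.6 and 38.6 CPM in deleted and 83.8, 85.2 and 90.5 CPM in intact DMSO libraries, a log2 fold change of -0.98 ± 0.11 (edgeR adjusted p = 2.08e-05). HMGCS1 had 53.9, 62.1 and 53.3 CPM in deleted and 83.6, 78.6 and 80.4 CPM in intact libraries, a log2 fold change of -0.52 ± 0.10 (adjusted p = 0.0016). In both genes the deleted libraries lay below all intact libraries. LSS and IDI1 went the other way: LSS had 52.2, 31.6 and 53.4 CPM in deleted and 25.1, 25.2 and 27.0 CPM in intact libraries (log2 fold change 0.83 ± 0.17, adjusted p = 0.00205), and IDI1 had 31.8, 41.6 and 32.5 against 24.0, 20.9 and 24.3 CPM (0.61 ± 0.13, adjusted p = 0.00205). Neighbouring steps of 1 pathway thus differed in opposite directions, SQLE being lower and LSS, the enzyme that takes its product, higher in deleted cells. SQLE lies on chromosome 8 and LSS on chromosome 21, and the part of gene position in these differences was not tested. MSMO1, the oxidase that starts removal of sterol methyl groups, was lower by 0.36 (adjusted p = 0.0378), with means of 33.5 ± 0.58 and 42.9 ± 1.49 CPM. NSDHL was higher by 0.29 (adjusted p = 0.0269), with 33.6 ± 1.9 and 27.5 ± 1.36 CPM, and SC5D, a sterol desaturase, by 0.51 (adjusted p = 0.0452), with 41.5 ± 9.16 and 29.1 ± 0.76 CPM. Each of these 3 calls was lost when 1 library was left out. MSMO1 lost it without any 1 of deleted DMSO replicates 1 and 3 and the 3 intact DMSO replicates (adjusted p from 0.063 to 0.113). NSDHL lost it without any 1 of 9 libraries (adjusted p from 0.052 to 0.203), all but deleted DMSO replicate 3 and intact doxorubicin replicates 2 and 3, and SC5D without any 1 of 9 (adjusted p from 0.0544 to 0.204), all but deleted DMSO replicate 3 and intact doxorubicin replicates 1 and 2. Without deleted DMSO replicate 2 the SC5D value was 0.30, and MVK (0.60, adjusted p = 0.00155), DHCR7 (0.56, adjusted p = 0.00304) and FDPS (0.26, adjusted p = 0.0307) were called as higher. HSD17B7 (-0.26 ± 0.11, adjusted p = 0.0769) was called as lower without any 1 of deleted doxorubicin replicates 2 and 3, intact doxorubicin replicate 2 and intact DMSO replicate 1 (adjusted p from 0.0391 to 0.0496), and TM7SF2 without deleted DMSO replicate 3 (-0.63, adjusted p = 0.0464).

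Among fatty acid enzymes, SCD had 91.5, 87.5 and 88.8 CPM in deleted and 161, 164 and 174 CPM in intact DMSO libraries, a log2 fold change of -0.90 ± 0.08 (edgeR adjusted p = 3.4e-06). ELOVL6 had 20.9, 24.3 and 21.2 CPM in deleted and 32.8, 32.6 and 34.7 CPM in intact libraries (-0.59 ± 0.11, adjusted p = 0.00122). FADS1 had 59.8, 54.4 and 58.7 CPM in deleted and 82.2, 78.1 and 80.2 CPM in intact libraries (-0.48 ± 0.09, adjusted p = 0.000799). All 3 genes were lower in every deleted than in every intact library. ACLY, on the long arm of chromosome 17, had 429, 319 and 401 CPM in deleted and 529, 506 and 503 CPM in intact libraries (-0.42 ± 0.11, adjusted p = 0.00792). FASN, on the same long arm, had 196, 99.9 and 176 CPM in deleted and 249, 261 and 206 CPM in intact libraries (-0.60 ± 0.20, adjusted p = 0.0304). Neither gene had overlap between the labels. The FASN value was -0.38 without deleted DMSO replicate 2 (adjusted p = 0.0374), and the call was lost without intact DMSO replicate 1 (adjusted p = 0.0861) or 2 (adjusted p = 0.0902). ACACA, the other member on that arm, did not pass, with 74.2 ± 8.41 CPM in deleted and 67.5 ± 4.25 CPM in intact libraries (SD, n = 3 each), nor did FADS2, with 34.7 ± 5.27 and 29.7 ± 1.88 CPM, which was called with the GC trend removed (0.32, adjusted p = 0.00459).

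**Figure D3:**
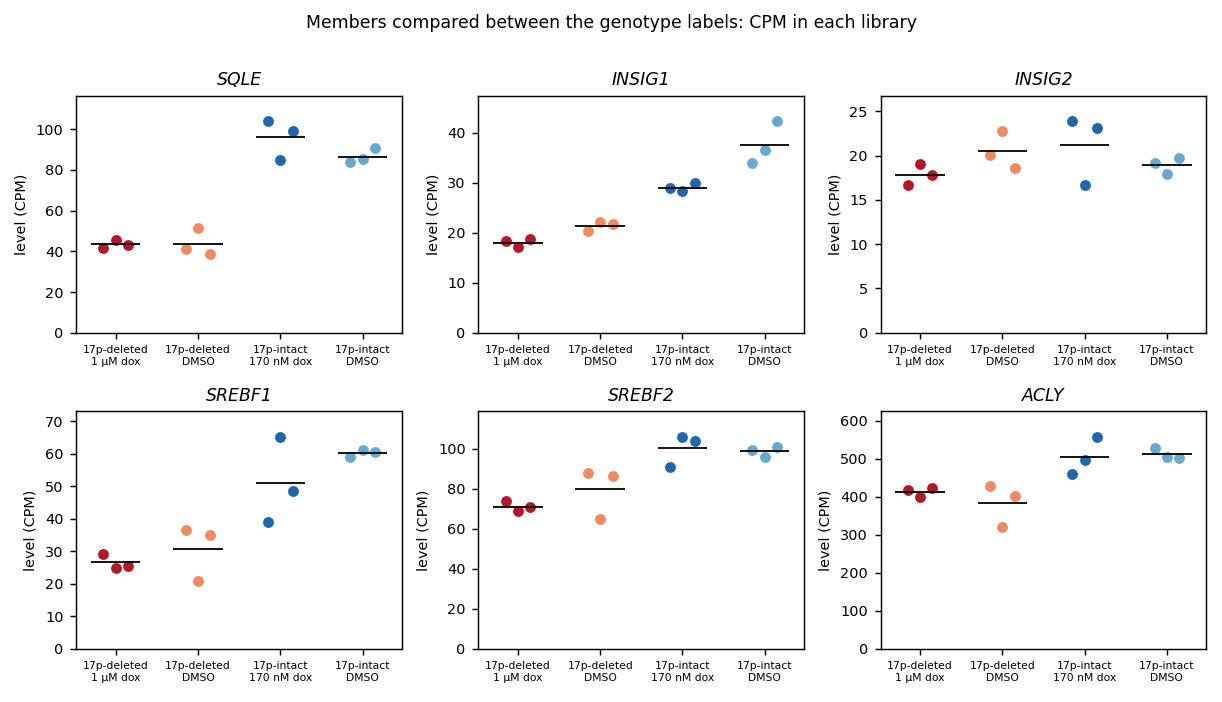
Level in CPM (y axis, from 0) of 6 genes in each of the 12 libraries, in 4 groups (x axis), with a line at the group mean. SQLE, INSIG1, SREBF1, SREBF2 and ACLY are lower in every deleted DMSO library than in every intact DMSO library, and INSIG2 overlaps.

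Between the treated groups, 18 of the 31 genes differed, 7 higher and 11 lower in deleted cells at 1 µM than in intact cells at 170 nM, against 25.9% higher and 21.9% lower among all genes. The treated and untreated comparisons of the labels use separate libraries, while each shares its deleted or intact libraries with a doxorubicin comparison. ELOVL6 and SCD lay farthest down, at 0.297 and 0.313 of the intact level (log2 fold changes -1.75 ± 0.12 and -1.67 ± 0.09, edgeR adjusted p = 5.24e-08 and 4.48e-09). SCD had 45.5, 42.0 and 44.3 CPM in deleted and 142, 127 and 151 CPM in intact treated libraries, and the groups lay far apart. SQLE (-1.15 ± 0.11), HMGCS1 (-1.0 ± 0.10), SREBF1 (-0.94 ± 0.20), INSIG1 (-0.68 ± 0.10) and SREBF2 (-0.50 ± 0.11) were lower as they were in DMSO. HSD17B7 (1.51 ± 0.11), IDI1 (1.08 ± 0.13), FADS2 (0.67 ± 0.13) and ACAT2 (0.60 ± 0.08) were higher. FADS1 was higher in deleted cells here (0.34 ± 0.09, adjusted p = 0.00499) and lower in DMSO (-0.48 ± 0.09). Its call here was lost without deleted doxorubicin replicate 1 or 3 or intact doxorubicin replicate 1 (adjusted p from 0.0567 to 0.0608). STARD4 at -0.50 ± 0.16 was -0.31 without intact doxorubicin replicate 3 (adjusted p = 0.125). PMVK at 0.70 ± 0.27 was 0.44 without intact doxorubicin replicate 1 (adjusted p = 0.207) and lost its call without any 1 of 8 libraries (adjusted p from 0.0587 to 0.207), the 3 deleted doxorubicin replicates, intact doxorubicin replicates 1 and 3 and the 3 intact DMSO replicates. LSS at 0.55 ± 0.17 lost it without any 1 of deleted doxorubicin replicates 1 and 3 and intact doxorubicin replicate 1 (adjusted p from 0.0537 to 0.103). ACLY at -0.29 ± 0.11 lost it without any 1 of the 3 deleted doxorubicin replicates, intact doxorubicin replicate 3 and intact DMSO replicates 1 and 3 (adjusted p from 0.0504 to 0.156). INSIG2 (-0.43, adjusted p = 0.00447) and TM7SF2 (0.57, adjusted p = 0.0487) were called without intact doxorubicin replicate 2, and MVK (0.37, adjusted p = 0.0104) and TM7SF2 (0.40, adjusted p = 0.0441) without deleted DMSO replicate 2.

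**Figure D4:**
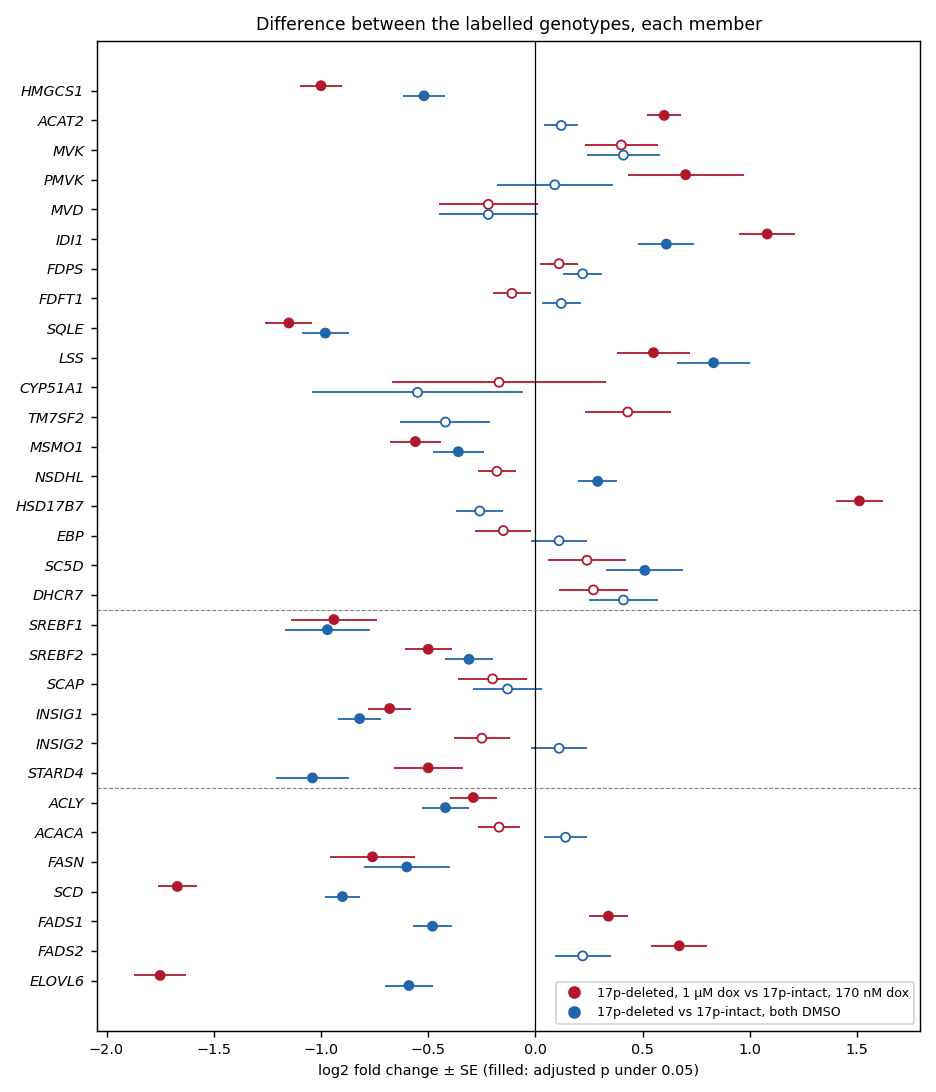
Log2 fold change with SE (x axis) of each of the 31 genes (y axis) for deleted over intact cells, in doxorubicin at 1 µM and 170 nM (red) and in DMSO (blue), with filled points at an adjusted p under 0.05 and dashed lines between sterol enzymes, regulators and transporters, and fatty acid enzymes. Filled points number 18 in doxorubicin, from -1.75 (ELOVL6) to 1.51 (HSD17B7), and 16 in DMSO, from -1.04 (STARD4) to 0.83 (LSS).

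Levels were also summed by role. The 18 sterol enzymes summed to 679 to 691 CPM in deleted doxorubicin, 652 to 670 CPM in deleted DMSO, 669 to 688 CPM in intact doxorubicin and 639 to 666 CPM in intact DMSO. These ranges lay close together although 7 sterol enzymes were called in deleted doxorubicin against deleted DMSO. Within each label every doxorubicin library still lay above every DMSO library, while the labels overlapped within each treatment. The 7 fatty acid enzymes summed to 748 to 806, 682 to 916, 963 to 1132 and 1091 to 1152 CPM in the same order of groups, and the 6 regulators and transporters to 198 to 212, 186 to 244, 261 to 309 and 296 to 308 CPM. For both of these roles every deleted library lay below every intact library. These sums weigh abundant genes most: ACLY alone averaged 414, 383, 505 and 513 CPM in the same order of groups. Single genes did not all follow, since FADS1 and FADS2 were called higher in deleted than in intact treated cells. In DMSO, ACACA, FADS2, SCAP and INSIG2 were not called between the labels. Per kilobase of exon, ACLY had the highest level of the 31 genes in all 4 groups, from 73.4 CPM per kilobase in deleted DMSO to 98.3 in intact DMSO. SCD averaged 8.19 CPM per kilobase in deleted doxorubicin, 16.6 in deleted DMSO, 26.1 in intact doxorubicin and 31 in intact DMSO, and the 4 ranges did not overlap. At the low end TM7SF2 averaged 2.18, 0.781, 1.61 and 1.05 CPM per kilobase in these groups.

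Related lists were counted in deleted doxorubicin against deleted DMSO, beside the background of 17.5% higher and 13.1% lower given above. Of 12 genes of SREBP processing and endoplasmic reticulum regulation 1 rose and 1 fell. MYLIP, a ubiquitin ligase for lipoprotein receptors, had 8.94, 9.42 and 10.5 CPM in doxorubicin and 6.93, 7.47 and 7.36 CPM in DMSO (log2 fold change 0.41 ± 0.10, edgeR adjusted p = 0.00775; 0.052 without deleted doxorubicin replicate 3). SPRING1, a cofactor of the protease that cleaves the SREBP factors, fell by 0.29 (SE 0.09, adjusted p = 0.0331), with 93.7, 79.3 and 87.6 CPM in doxorubicin and 111, 98.5 and 109 CPM in DMSO. Its call was lost without any 1 of 8 libraries (adjusted p from 0.0507 to 0.151), deleted doxorubicin replicates 2 and 3, deleted DMSO replicates 1 and 3, intact doxorubicin replicate 1 and the 3 intact DMSO replicates. MBTPS1, that protease, did not pass, at 173, 174 and 175 CPM in doxorubicin and 166, 164 and 161 CPM in DMSO. In this list 2 genes were higher and 6 lower in deleted than in intact DMSO cells, where 18.8% of all genes were higher and 16.2% lower.

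Of 13 tested genes of sterol uptake, efflux, storage and transport 5 rose and 1 fell. LIPA, the lysosomal lipase that frees cholesterol from its esters, had 52.1, 47.6 and 52.4 CPM in doxorubicin and 62.5, 64.8 and 66 CPM in DMSO (log2 fold change -0.35 ± 0.09, edgeR adjusted p = 0.00765). CH25H, a cholesterol hydroxylase, had 6, 12 and 6 counts in doxorubicin and 0 in all 3 DMSO libraries, which is at least 6.75-fold higher against a limit of 3 counts over the DMSO group. Both levels are at the edge of detection. NPC2, a lysosomal cholesterol carrier, did not pass, at 173, 165 and 161 CPM in doxorubicin and 182, 207 and 190 CPM in DMSO. Of 12 genes of the isoprenoid branch, which uses the same prenyl diphosphates for protein prenylation and ubiquinone, 1 rose and 3 fell. RABGGTA, a subunit of the enzyme that prenylates Rab proteins, had 46.9, 50.8 and 49.4 CPM in doxorubicin and 22.6, 22.4 and 24.4 CPM in DMSO (1.08 ± 0.11, adjusted p = 4.43e-06). PDSS1, which makes the ubiquinone side chain, had 7.77, 7.79 and 7.57 CPM in doxorubicin and 10.6, 11.1 and 10.3 CPM in DMSO (-0.46 ± 0.10, adjusted p = 0.00359). ICMT, a prenylprotein methyltransferase, did not pass, at 185, 165 and 180 CPM in doxorubicin and 185, 180 and 178 CPM in DMSO.

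Of 23 genes of fatty acid supply, elongation, desaturation and activation 10 rose and 1 fell. FADS3, the third gene of the desaturase cluster on chromosome 11, had 68.2, 71.1 and 72.8 CPM in doxorubicin and 27.1, 19.3 and 29.7 CPM in DMSO (log2 fold change 1.48 ± 0.15, edgeR adjusted p = 6.58e-06). All 3 genes of the cluster thus rose, at 0.80 for FADS1, 0.43 for FADS2 and 1.48 for FADS3. SCD5, a paralog of SCD, had 60.5, 59.6 and 67.1 CPM in doxorubicin and 33.2, 35.0 and 32.0 CPM in DMSO (0.90 ± 0.09, adjusted p = 6.65e-06), while SCD fell. HACD3, a dehydratase of the elongation cycle, did not pass, at 316, 312 and 318 CPM in doxorubicin and 313, 426 and 315 CPM in DMSO, of which DMSO replicate 2 stood above the rest. In intact cells 0 genes of these 4 lists were called by edgeR at 170 nM. At an unadjusted p under 0.05 edgeR gave 1, 1, 1 and 3 genes, against 2504 of all 21803 genes. DESeq2 called 467 of all genes and 1 of these lists, a gene of sterol uptake and transport that was higher in doxorubicin.

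The 2 libraries of highest mitochondrial share stood apart for the 31 genes as well. In deleted DMSO replicate 2 the log2 ratio of CPM to the mean of replicates 1 and 3 ran from -2.5 (CYP51A1) to 0.52 (SC5D), was below 0 for 18 genes and had a Spearman rho of -0.77 with the GC content of the longest transcript (n = 31 genes, which share the library). In intact doxorubicin replicate 1 it ran from -1.57 to 0.48, was below 0 for 20 genes and had a rho of -0.81. Genes of high GC content such as FASN (65.3%, log2 ratio -0.90) and SREBF1 (62.8%, -0.78) were low in deleted DMSO replicate 2, and CYP51A1, at 41.5%, lay off that trend.

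**Figure D5:**
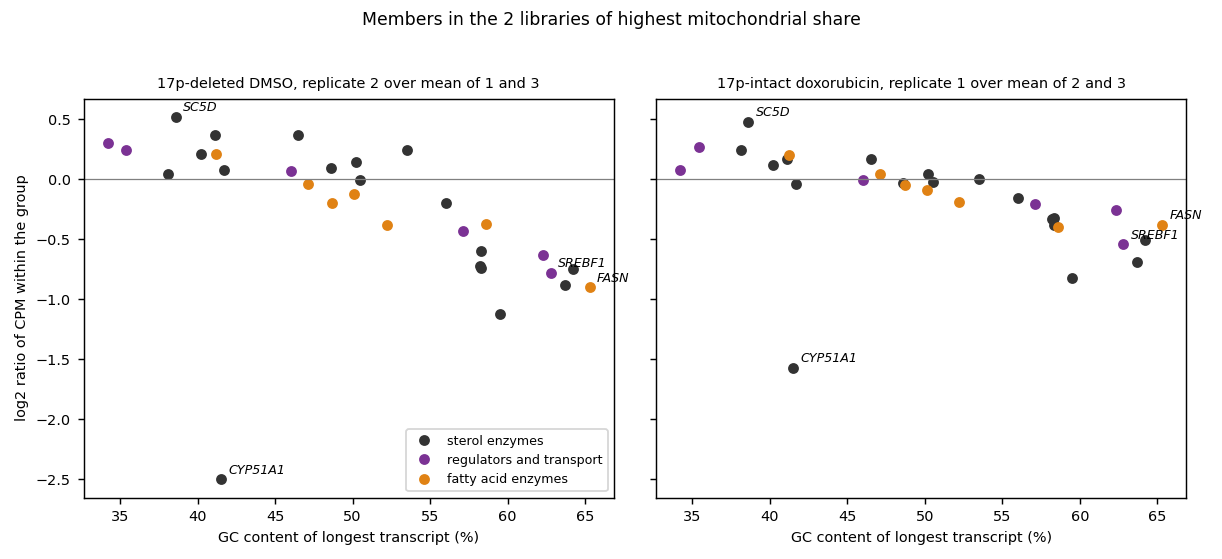
Log2 ratio of CPM to the mean of the other 2 libraries of the group (y axis) against GC content of the longest transcript in percent (x axis) for the 31 genes, coloured by role, in deleted DMSO replicate 2 (left) and intact doxorubicin replicate 1 (right). The ratio declines with GC content in both, from 0.52 and 0.48 for SC5D to -1.12 and -0.82 for PMVK. FASN, of the highest GC content, lies at -0.90 and -0.38, and CYP51A1 lies below the rest at -2.5 and -1.57.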

How the data were processed

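The deposited values are raw read counts per gene and library, which were used as deposited. Per the submitters' processing notes, the authors aligned reads to hg38 with STAR 2.7.9a and counted them with featureCounts of Subread 2.0.1. Neither the release of the annotation nor the strand option is given in the sources used here. Per the labels' protocols, total RNA was made into libraries with the KAPA RNA Hyper Prep kit and sequenced as read pairs.

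After the filterByExpr filter and TMM scaling, edgeR 4.0.16 (R 4.3.3) tested the 4 groups by quasi-likelihood in a single model. P-values were adjusted over all 21803 genes tested (Benjamini-Hochberg, threshold 0.05). CPM uses TMM-scaled library sizes, and an SE is the log2 fold change over the root of the F statistic. Gene positions, exon lengths and GC content come from GENCODE 29 (GC content known for 98% of genes tested). This model was tested on simulated counts. Since the labels name no separate cultures, a p-value reflects only how far these libraries spread, possibly for technical reasons. Replicate pairs differed beyond sampling noise (chi-square over degrees of freedom 7.72 to 180). Deviations of same-numbered libraries correlated with r from -0.679 to 0.29, which does not settle whether the numbers pair the libraries. The limit for a count of 0 covers counting error only.

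The 31 genes and the lists were chosen with earlier results of these data known. Named genes were up to 4 per role of lowest p among those called, and for other lists the 2 of lowest p and the most abundant that did not pass; further members are given by their values and were chosen after these were seen. Some genes of the pathway are not reported here. Alternatives were RLE size factors, library totals, no filter, 1 CPM in 3 libraries, DESeq2 1.42.0, only the groups compared, a replicate block, GC trend removal by loess (span 0.5), leaving out libraries, and a 2-fold change.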

Additional observations from a re-analysis of the deposited data

Results flagged for a closer look

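In 7 of the 31 genes the doxorubicin effect differed between the labels in the interaction term of the edgeR fit, where the dose was 1 µM in deleted and 170 nM in intact cells, so label and dose cannot be told apart. HSD17B7 differed by 1.76 on the log2 scale, with an effect of 1.91 in deleted and 0.15 in intact cells. FADS1 differed by 0.82, with effects of 0.80 in deleted cells and a value within its SE of 0 in intact cells. For ACAT2 the difference was 0.48, from 0.64 in deleted and 0.15 in intact cells. ELOVL6 differed by -1.16, from -1.31 in deleted and -0.16 in intact cells. For SCD the difference was -0.78, from -1.02 in deleted and -0.25 in intact cells. HMGCS1 differed by -0.48 and NSDHL by -0.46, and both calls were lost under several alternatives. All 3 deleted doxorubicin libraries lay on 1 side of all 3 deleted DMSO libraries in each of the 7 genes. The interaction term that picked these genes used the same libraries, so the separation is no separate support.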

How the results depend on the processing

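Of 54 results called for single members over the 5 comparisons, 0 changed sign under any alternative, and of those not called 38 changed sign at least once. Apart from the 2-fold limit, the calls kept under every alternative numbered 8 of 13 for deleted doxorubicin against deleted DMSO, 11 of 16 for deleted against intact DMSO, 13 of 18 for the treated labels and 5 of 7 for the difference of effects. In deleted doxorubicin against DMSO the 13 calls became 24 with the GC trend removed, 20 without the 2 libraries of highest mitochondrial share and 4 at 2-fold. Calls over all genes in that comparison went from 6684 to 8726 with the GC trend removed and to 7912 without those 2 libraries. In intact cells the 0 calls became 1 in DESeq2 (INSIG1), 2 with the GC trend removed (INSIG1 and TM7SF2) and 1 without those 2 libraries (TM7SF2). At 2-fold, 1 call was left between the labels in DMSO, 5 between the treated labels and 2 for the difference of effects. The difference of effects rose to 15 calls with the GC trend removed, where its calls over all genes rose from 3705 to 5704. The cause was not tested, except that a 2-fold limit removes smaller changes by construction. Leaving out each library in turn gave 9 to 16 calls in deleted doxorubicin against DMSO, 0 in intact, 11 to 17 between the labels in DMSO, 14 to 20 between the treated labels and 5 to 10 for the difference. With the replicate number as a block, calls in the same order were 11, 0, 12, 16 and 5. Of 18 same-numbered pairs 6 had r above 0.1, which does not settle whether the numbers pair the samples. Some of these pairs hold deleted DMSO replicate 2 or intact doxorubicin replicate 1, whose deviations went with GC content (Spearman rho -0.698 and -0.628). Over all genes, GC trend removal moved the higher share of calls from 57.2% to 44.2% in deleted doxorubicin against DMSO and from 60.3% to 44.7% for the difference, and calls in intact cells ran from 0 to 467 against 13. The lowest count of a member in any library was 61, and the part of depth in the calls was not tested.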

Other observations

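Of 11 tested genes of triglyceride synthesis and lipid droplets 3 rose and 2 fell in deleted doxorubicin against deleted DMSO, where 17.5% of all genes were higher and 13.1% lower. PLIN4, a lipid droplet coat protein, had 11.5, 10.5 and 9.56 CPM in doxorubicin and 0.725, 0.353 and 1.01 CPM in DMSO, a log2 fold change of 3.91 ± 0.31 (edgeR adjusted p = 4.28e-07, n = 3 each). It had 0.117, 0.0745 and 0.166 CPM in intact doxorubicin and 0.229, 0.158 and 0.122 CPM in intact DMSO, below every deleted library. LPIN1, a phosphatidate phosphatase, had 79.3, 77.2 and 80.5 CPM in doxorubicin and 58.0, 55.4 and 56.1 CPM in DMSO of the deleted cells (0.48 ± 0.08, adjusted p = 0.000267). LPIN2 had 74.6, 65.2 and 68.1 CPM in doxorubicin and 94.2, 71.4 and 89.2 CPM in DMSO and did not pass (adjusted p = 0.0566), and without deleted DMSO replicate 2 its log2 fold change was -0.42 with an adjusted p of 0.00415.

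Of 11 tested genes of fatty acid oxidation 4 rose and 0 fell by edgeR in the same comparison, against 17.5% higher and 13.1% lower over all genes. At an unadjusted p under 0.05 edgeR gave 4, against 8765 of all 21803 genes. DESeq2 also called 4 higher and 0 lower. In intact cells at 170 nM edgeR called 0 of these 11 genes, and 6 had an unadjusted p under 0.05, against 2504 of all 21803 genes. DESeq2 called 1 of the 11 and 467 of all genes. Between treatments 7 of the 11 had no overlap in intact cells and 5 in deleted cells. The same count was not made over all genes, so it shows nothing particular to this list. The median log2 fold change of the list was 0.15 in deleted cells (-0.02 over all genes) and 0.21 in intact cells (0.01 over all genes). CPT2, the inner carnitine palmitoyltransferase of mitochondria, had 44.1, 42.9 and 41.4 CPM in doxorubicin and 23.8, 26.9 and 25.9 CPM in DMSO (log2 fold change 0.74 ± 0.09, edgeR adjusted p = 3.79e-05). SLC25A20, the acylcarnitine carrier, had 20.1, 18.9 and 19.4 CPM in doxorubicin and 12.2, 10.1 and 12.3 CPM in DMSO (0.75 ± 0.11, adjusted p = 0.000119). HADHA, of the trifunctional protein, did not pass, at 238, 245 and 238 CPM in doxorubicin and 224, 211 and 217 CPM in DMSO.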
